A study of Homo sapiens with 36 samples.

Results

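CDKN1A, CDKN1B, CDKN1C, CDKN2B, CDKN2C and CDKN2D encode inhibitors of cyclin-dependent kinases (CDKs), CCND1, CCND2 and CCND3 encode the D cyclins, and CDK6 encodes a kinase that the D cyclins activate. These 10 genes were taken by name from the 60656 gene rows of each deposited table, and each was found as 1 row. They are named members of these families, not all of their members.

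D cyclins bind CDK4 and CDK6, and the active kinases phosphorylate the retinoblastoma protein RB, which then frees E2F factors to switch on the genes of S phase. The CIP/KIP inhibitors (CDKN1A, CDKN1B and CDKN1C, known as p21, p27 and p57) bind whole cyclin-CDK complexes, whereas the INK4 inhibitors (CDKN2B, CDKN2C and CDKN2D, known as p15, p18 and p19) bind CDK4 and CDK6 themselves. In melanoma cells with mutant BRAF, the kinases BRAF and MEK feed the kinase ERK, and CCND1 is a well-known gene downstream of ERK.

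RNA-Seq was done on 3 human melanoma lines named 1205LuTR-NR2F1, WM793TR-NR2F1 and A375TR-NR2F1, called 1205Lu, WM793 and A375 here. The paper describes all 3 lines as BRAF-V600E mutant. All of them carry the Tet repressor and a lentiviral cDNA of NR2F1, an orphan nuclear receptor, which doxycycline (DOX) switches on, and were selected with hygromycin. Each line had 4 groups of 3 replicates, 36 libraries in all: DMSO, DMSO + DOX, BRAFi + MEKi, and BRAFi + MEKi + DOX. The study asked how cells that overexpress NR2F1 respond to these inhibitors.

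The BRAF inhibitor (BRAFi) was PLX4720 at 1 µM and the MEK inhibitor (MEKi) was PD0325901 at 35 nM, given together for 72 hours with or without DOX at 100 ng/mL after a first step of 24 hours. The labels describe that first step as with or without DOX, and the methods describe it as with DOX, so whether the groups named without DOX were exposed to it then was not settled. None of these libraries had DOX but no NR2F1 cDNA, and so the effects of DOX and of NR2F1 cannot be told apart. 1205Lu and WM793 grew in a low-serum medium with insulin and A375 in DMEM with more serum, so line and medium cannot be told apart either. The methods describe the replicates of work in cells as separate experiments, and the labels do not say how separate the libraries were, so p-values measure only the spread between these libraries.

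The deposited values are expression values scaled between libraries by the authors, not read counts, and the depth behind each value is unknown. They summed to between 27027824 and 34621958 per library. NR2F1 was higher with DOX under BRAFi + MEKi in each line, by 3.33, 4.99 and 4.14 on the log2(value + 1) scale for 1205Lu, WM793 and A375 (limma, adjusted p = 0.00491, 0.00383 and 6.73e-06). Under DMSO the differences were 1.93, 6.39 and 5.49 (adjusted p = 0.412, 8e-04 and 3.33e-07), so the difference in 1205Lu was not called there, with means of 3594 and 13041 against 3449 and 33790 under the inhibitors. The 1205Lu libraries under DMSO did not overlap, with NR2F1 at 6273, 2182 and 2327 without DOX and 20699, 9155 and 9270 with it. DUSP6, an ERK target, had differences with BRAFi + MEKi of -4.09, -2.26 and -3.13 in the same order, all of them called. Among genes of undifferentiated melanoma, AXL lay between 1784 and 9767, EGFR between 235.4 and 3319, and WNT5A between 796 and 5561. NGFR lay between 61.61 and 11890. SOX9 lay between 7013 and 12990 in 1205Lu and reached at most 104.4 in WM793 and 346.7 in A375. Melanocyte lineage genes were mixed. S100B lay between 1100 and 60210 and S100A1 between 222.3 and 15700. SOX10 lay between 5684 and 24850 and MITF between 68.25 and 2785, PMEL reached 152.7 and TYRP1 26.8, MLANA and TYR reached at most 0.974 and 4.91, and DCT ranged from 0 to 537, 4742 and 13700 in 1205Lu, WM793 and A375. Of 9 genes of other cells, CD3E, CDH5 and EPCAM reached at most 1.19, 13.8 and 10.3, KRT5, PECAM1, VWF and PTPRC at most 33.2, 40.9, 75.5 and 91.0. KRT14 reached 141.7 in 1205Lu and lay between 57.15 and 244.2 in A375, and CD68 lay between 345.2 and 6429. In bulk RNA, fewer cells of a type and less RNA per cell cannot be told apart.

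For 7 of the 10 genes RefSeq promoter windows on GRCh38.p14 were at hand, with 12 transcription starts among them. Each window of 300 bases holds 250 bases before the start and 50 from the start on. Below are 5 of them, those of the gene with the largest difference with DOX under the inhibitors (CDKN1A), of 2 inhibitors that rose with BRAFi + MEKi in at least 2 lines (CDKN1B, CDKN2C), and of an inhibitor and a kinase that fell in at least 2 lines (CDKN2D, CDK6). CDKN2C and CDK6 have other starts, and the outermost one is shown. Capitals mark 3 motifs on either strand: the GC box GGGCGG, which SP1 binds, the CCAAT box, named by its letters and bound by NF-Y, and the E-box CACGTG, bound by MYC and related factors.
CDKN1A, chr6:36678464-36678763, plus strand: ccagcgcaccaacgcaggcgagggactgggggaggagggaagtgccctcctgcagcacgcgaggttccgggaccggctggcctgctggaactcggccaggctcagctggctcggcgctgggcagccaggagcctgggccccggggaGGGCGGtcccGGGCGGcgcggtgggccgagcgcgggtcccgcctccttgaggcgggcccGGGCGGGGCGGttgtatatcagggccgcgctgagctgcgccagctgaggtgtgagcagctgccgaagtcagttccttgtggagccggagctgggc
CDKN1B, chr12:12717118-12717417, plus strand: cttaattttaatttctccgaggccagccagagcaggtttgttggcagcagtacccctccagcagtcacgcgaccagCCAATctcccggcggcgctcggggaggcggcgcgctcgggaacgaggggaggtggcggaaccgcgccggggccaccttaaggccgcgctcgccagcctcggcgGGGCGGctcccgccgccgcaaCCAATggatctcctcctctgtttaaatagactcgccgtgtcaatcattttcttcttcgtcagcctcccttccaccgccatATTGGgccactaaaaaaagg
CDKN2C, chr1:50960495-50960794, plus strand: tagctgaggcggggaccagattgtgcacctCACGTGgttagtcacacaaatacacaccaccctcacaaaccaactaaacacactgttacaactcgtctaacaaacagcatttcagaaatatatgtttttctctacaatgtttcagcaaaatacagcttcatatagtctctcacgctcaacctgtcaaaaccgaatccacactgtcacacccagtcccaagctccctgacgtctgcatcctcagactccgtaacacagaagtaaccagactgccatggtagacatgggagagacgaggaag
CDKN2D, chr19:10568930-10569229, minus strand: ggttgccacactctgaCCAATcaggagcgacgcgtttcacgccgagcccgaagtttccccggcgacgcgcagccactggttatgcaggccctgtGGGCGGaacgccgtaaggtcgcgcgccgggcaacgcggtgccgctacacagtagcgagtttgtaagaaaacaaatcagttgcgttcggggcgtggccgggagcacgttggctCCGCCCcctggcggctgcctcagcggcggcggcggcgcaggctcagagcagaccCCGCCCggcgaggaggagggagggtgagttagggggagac
CDK6, chr7:92836524-92836823, minus strand: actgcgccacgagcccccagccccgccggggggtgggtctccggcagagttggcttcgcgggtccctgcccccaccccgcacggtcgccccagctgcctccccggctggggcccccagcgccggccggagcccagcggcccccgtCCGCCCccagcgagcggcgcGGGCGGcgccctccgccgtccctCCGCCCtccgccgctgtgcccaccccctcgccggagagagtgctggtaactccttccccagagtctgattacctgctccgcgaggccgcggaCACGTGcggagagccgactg

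Of 7 motifs searched on both strands, the GC box was the most frequent in these windows, with 4 matches in CDKN1A, 3 each in CDKN2D and CDK6, 1 in CDKN1B and none in the CDKN2C window shown. In CDKN1A the last 2 matches, starting 45 and 40 bases before the transcription start, overlap by 1 base. Of all 35116 windows of this length, 45.0% held GGGCGG, 34.6% held CCAAT and 7.26% held CACGTG. The nuclear receptor half-site AGGTCA, which NR2F1 is known to bind, was in 13.8% of all windows and in none of the 12 windows of these genes. The AP-1 site TGANTCA (7.71% of windows) and the E2F site TTTNGCGC (1.79%) were also in none of the 12. The forkhead box TGTTTAC (3.42%) was in 1 of them, at the outermost start of CCND3. No match says only that these letters are not in the window.

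In GENCODE 44 on GRCh38, CDKN1A spans chr6:36676460-36687337, CDKN1B chr12:12685498-12722369, CDKN1C chr11:2883213-2885775, CDKN2B chr9:22002903-22009305 and CDKN2C chr1:50960745-50974634. CDKN2D spans chr19:10566460-10569059, CCND1 chr11:69641156-69654474, CCND2 chr12:4269771-4305353, CCND3 chr6:41934934-42050357 and CDK6 chr7:92604921-92836573. All but CDKN1C and CDKN2D overlap a gene on the opposite strand, among them DINOL for CDKN1A, GPR19 for CDKN1B, CDKN2B-AS1 for CDKN2B and LTO1 for CCND1. The sources used here do not say that reads were counted by strand, so reads of such pairs cannot be told apart.

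**Figure D1:**
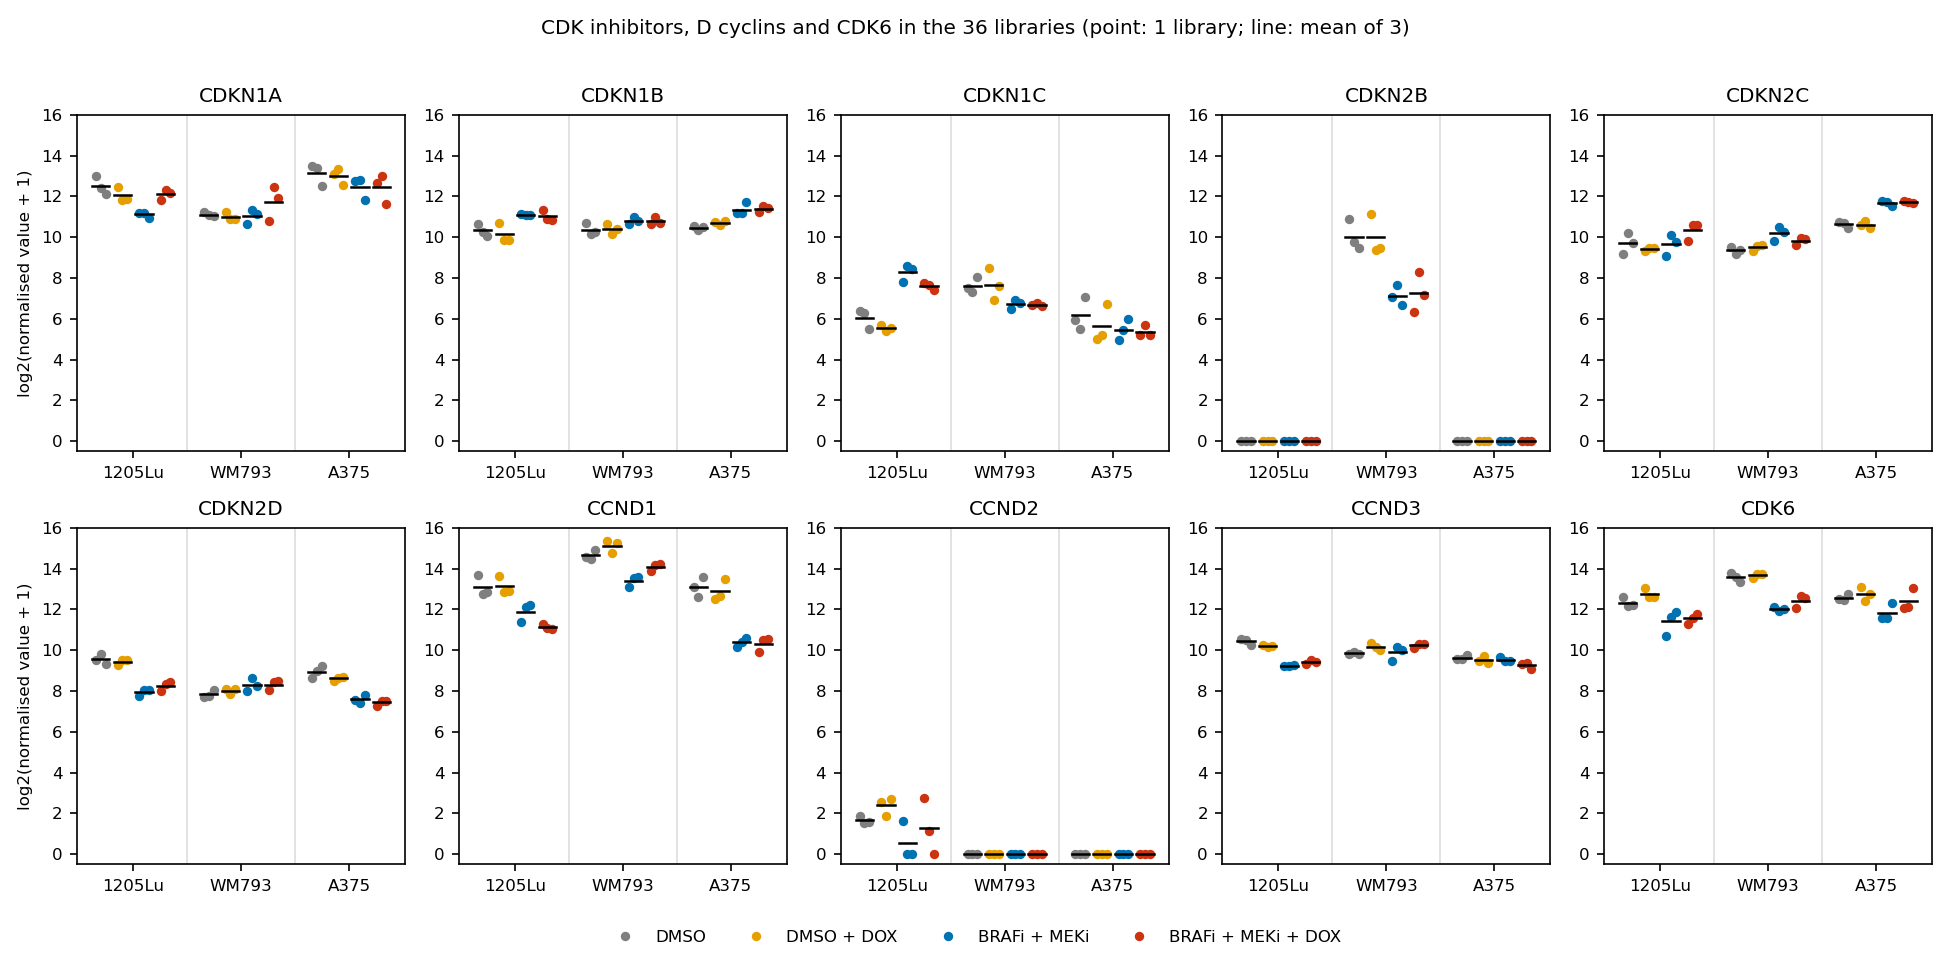
Each panel plots the deposited value of 1 gene in every library (vertical axis, log2(value + 1)), by line and treatment, with the 3 replicates as points and the mean of their log2 values as a short line. CDKN2B was listed at 0 in all libraries of 1205Lu and A375, and CCND1 lay between 974.5 in A375 and 41313 in WM793.

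The lines differed in most of these genes before any inhibitor. In DMSO alone, limma called 8 of 10 genes between 1205Lu and WM793 (30.7% of all 26779 genes), 4 of 9 between 1205Lu and A375 (46.8%), and 7 of 9 between WM793 and A375 (47.5%). The share lay near the background for 1205Lu and A375 and above it for both pairs with WM793. CDKN1B, which restrains CDK2 complexes, was called in none of the 3 pairs, with means of 1301 ± 268, 1336 ± 270 and 1421 ± 95.3 (SD, n = 3) in 1205Lu, WM793 and A375.

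CDKN2B was the sharpest difference. It was listed at 0 in all 12 libraries of 1205Lu and all 12 of A375, whereas the 3 DMSO libraries of WM793 had 1875, 853.4 and 699.6. CCND2 was near absent everywhere. It was listed at 0 in all 24 libraries of WM793 and A375 and reached at most 5.79 in 1205Lu, a level at which a fold change carries little. In the pair of 1205Lu and WM793 its call rested on values of 2.62, 1.89 and 2.03 against 0 (adjusted p = 0.00228), and was lost in the fit of the compared libraries alone (adjusted p = 0.0551).

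CDKN1A, a gene that p53 induces, was lowest in WM793, with 2368, 2166 and 2093. A375 had 11628, 10598 and 5855, and 1205Lu had 8271, 5424 and 4445. No library of WM793 in DMSO reached those of the other lines, and WM793 was lower than 1205Lu by 1.41 (adjusted p = 0.00197) and than A375 by 2.02 (adjusted p = 1.4e-05) on the log2(value + 1) scale. 1205Lu and A375 overlapped (difference -0.62, SE 0.35, adjusted p = 0.151). That difference was called with array weights (0.0149) and without A375 DMSO replicate 3 (-0.93, adjusted p = 0.0458).

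CCND1 showed the opposite order. WM793 had 24227, 22626 and 31118 in DMSO, above every DMSO library of 1205Lu (13133, 7011 and 7427) and of A375 (8705, 6164 and 12342). The differences were 1.55 from 1205Lu (adjusted p = 5.45e-05) and 1.56 from A375 (adjusted p = 2.55e-05). CDK6 was also highest in WM793, by 1.24 over 1205Lu and 1.00 over A375 (adjusted p = 0.000327 and 0.00181). CDKN2D, by contrast, was lowest in WM793, by 1.72 against 1205Lu and 1.12 against A375 (adjusted p = 8.5e-09 and 7.44e-06), and CCND3 was highest in 1205Lu, by 0.58 over WM793 and 0.79 over A375 (adjusted p = 0.00129 and 1.47e-05).

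Levels can be set against each other between genes only per length, here per kb of the union of a gene's exons. On that scale CCND1 in WM793 stood alone, at a mean of 5459 per kb against 1005 for CDK6 and 737.2 for CDKN1A. In 1205Lu, CDKN1A (2018 per kb) and CCND1 (1930 per kb) overlapped at the top, as did CDKN1A (3124 per kb) and CCND1 (1905 per kb) in A375. CDKN1C was the lowest gene above 10 per kb in each line, at 27.5 in 1205Lu, 80.5 in WM793 and 31.9 in A375. The order of the middle genes changes when the longest transcript is taken as the length.

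**Figure D2:**
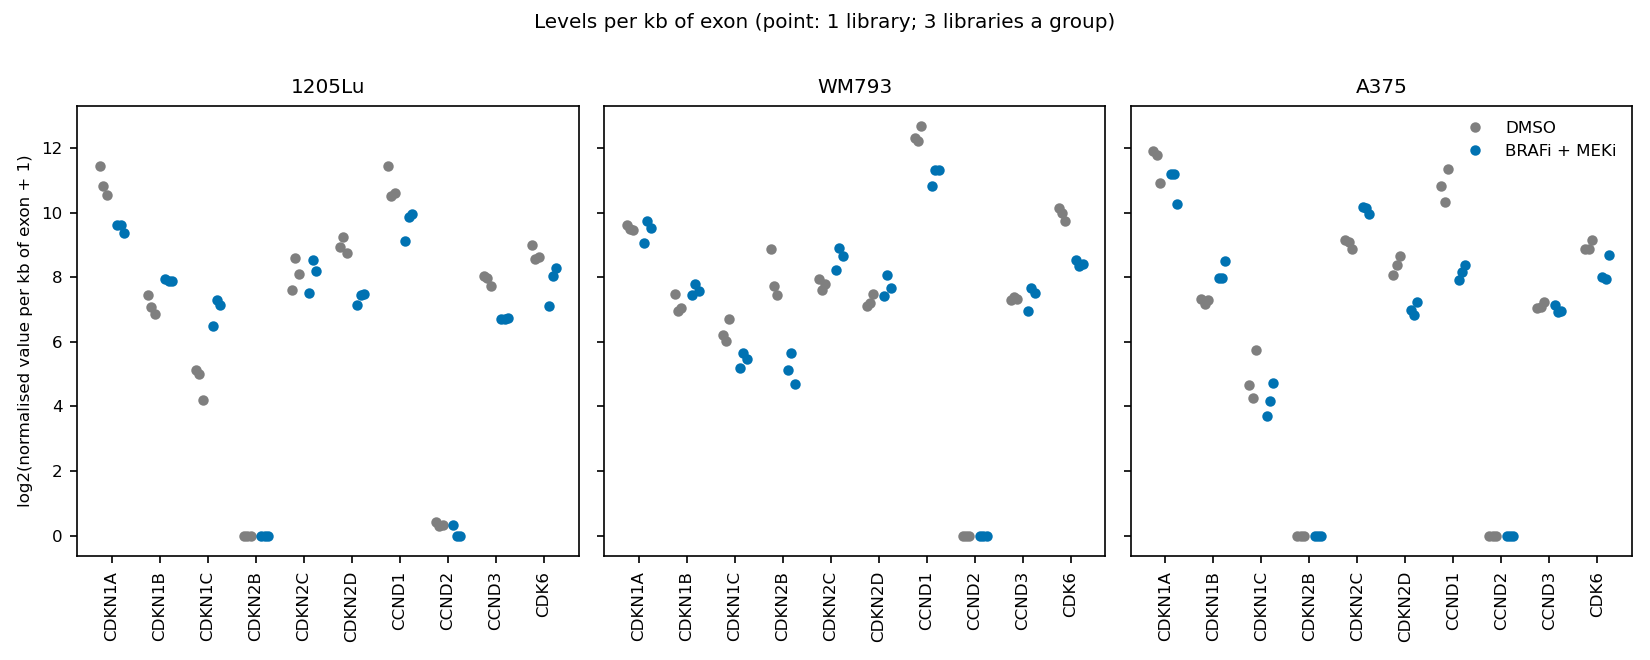
Deposited value per kb of exon union (vertical axis, log2(value per kb + 1)) for each gene in the DMSO and BRAFi + MEKi libraries of each line, with 1 point per library. CCND1 in WM793 in DMSO (mean 5459 per kb) lies above every other gene of that group.

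BRAFi + MEKi without DOX lowered CCND1 and CDK6 in all 3 lines, while the CDK inhibitors rose or fell by gene and by line. Of the 9 genes tested in 1205Lu, 2 rose and 5 fell, where 16.5% of all 22144 genes were called higher and 14.4% lower (7 called, against 30.9%). In WM793, 1 rose and 3 fell, where 20.4% of 22074 genes were called higher and 16.9% lower (4 of 9, against 37.3%). In A375, 2 rose and 3 fell, where 20.5% of 24370 genes were called higher and 19.0% lower (5 of 8, against 39.5%). The median difference over the genes tested was -1.12, -0.07 and -0.69 in 1205Lu, WM793 and A375, where that over all genes tested was 0.11, 0.15 and 0.06. The share called in WM793 was near the background of that line.

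**Figure D3:**
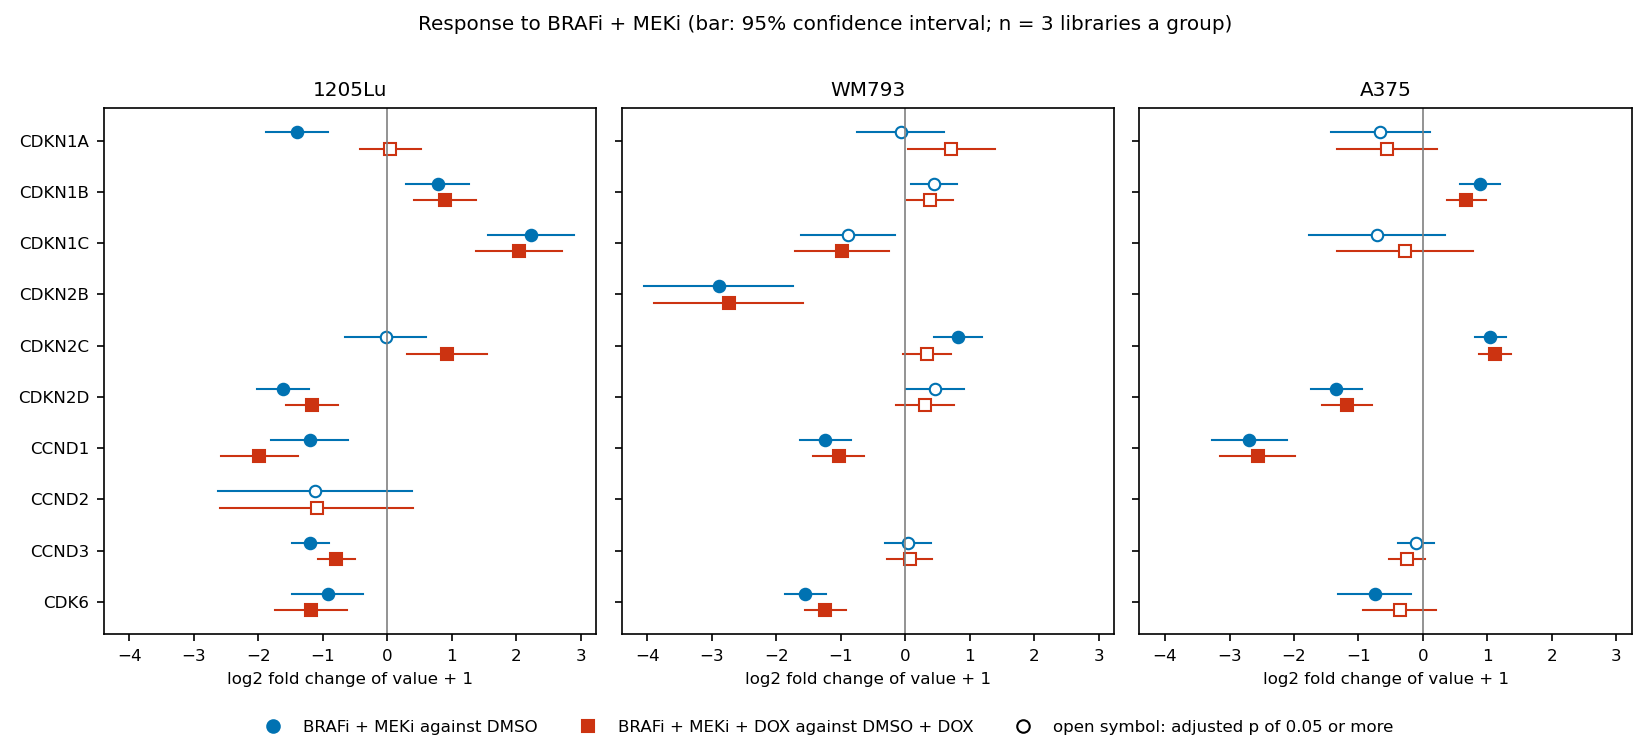
Difference between BRAFi + MEKi and DMSO (log2(value + 1), horizontal axis) for each gene in each line, without and with DOX, with 95% intervals from limma and open symbols where the adjusted p was 0.05 or more. CCND1 lies to the left of 0 in each line and condition, from -1.03 to -2.69, and CDKN1C lies to the right of 0 in 1205Lu alone.

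CDKN1A fell with BRAFi + MEKi in 1205Lu. Its values were 8271, 5424 and 4445 in DMSO and 2337, 2341 and 1984 with the inhibitors, with no overlap, a difference of -1.40 (SE 0.22, adjusted p = 0.000369). In WM793 it had 2368, 2166 and 2093 against 1611, 2587 and 2222, which overlapped (-0.07, 95% interval -0.74 to 0.60). In A375 it had 11628, 10598 and 5855 against 6979, 7094 and 3677, and replicate 3 was the lowest in all 4 groups of that line (-0.66, 95% interval -1.43 to 0.11, adjusted p = 0.161).

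CDKN1B, the p27 gene that FOXO factors are known to induce, rose in 1205Lu and A375. In 1205Lu it went from 1598, 1230 and 1077 to 2276, 2170 and 2162, and in A375 from 1490, 1313 and 1461 to 2328, 2299 and 3356. Neither pair of groups overlapped, and the differences were 0.78 (SE 0.22, adjusted p = 0.0174) and 0.88 (SE 0.14, adjusted p = 0.000219). The call in 1205Lu was lost when DMSO replicate 2 or DMSO replicate 3 was left out (adjusted p = 0.0527 and 0.0756). In WM793 it had 1643, 1136 and 1229 against 1624, 2051 and 1746, groups that overlapped by 1 library (0.45, SE 0.17, adjusted p = 0.0509). It was called after scaling the libraries to the same total (0.00754), with array weights (0.00295) and in 4 of 12 fits with 1 library left out (0.0122 to 0.0486).

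CDKN1C, an imprinted gene whose product p57 acts mainly in development and in cells leaving the cycle, rose in 1205Lu and had lower means with the inhibitors in the other lines, without a call there. In 1205Lu it went from 83.6, 77.4 and 43.6 to 220.6, 389.7 and 350.3, with no overlap and a difference of 2.23 (SE 0.31, adjusted p = 0.000132), the largest rise among these genes. In WM793 it had 180.6, 158.9 and 259.6 against 87.5, 122.0 and 108.2 with the inhibitors, again without overlap (-0.89, SE 0.34, adjusted p = 0.0532). It was called in the fit of the compared libraries alone (0.0401) and without DMSO + DOX replicate 1 or replicate 2 (0.0207 and 0.0275), with adjusted p up to 0.174 over the other settings and left-out libraries. In A375 the groups overlapped, with 60.8, 44.8 and 131.6 against 29.6, 42.2 and 62.5 (-0.72, 95% interval -1.77 to 0.34).

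CDKN2B, whose product p15 is known as a mediator of TGF-beta arrest, could be compared in WM793 alone. It fell from 1875, 853.4 and 699.6 to 134.9, 199.0 and 99.9, a difference of -2.89 (SE 0.54, adjusted p = 0.000791). All libraries with the inhibitors lay below all in DMSO, and replicate 1 was the highest in both DMSO groups of the line (2224 against 669.2 and 709.8 in DMSO + DOX).

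CDKN2C rose without DOX in WM793 and A375 but was not called in 1205Lu. In A375 it went from 1731, 1645 and 1418 to 3510, 3412 and 2980 (1.05, SE 0.11, adjusted p = 7.53e-06). In WM793 it went from 741.6, 581.8 and 671.3 to 900.1, 1447 and 1223 (0.82, SE 0.17, adjusted p = 0.00207). Neither line showed overlap. In 1205Lu the groups had 581.2, 1173 and 831.8 against 547.4, 1108 and 881.7, almost the same spread (-0.03, 95% interval -0.65 to 0.60).

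CDKN2D, the third INK4 gene here, fell in 1205Lu from 739.2, 908.1 and 644.7 to 212.1, 264.4 and 267.7 (-1.61, SE 0.19, adjusted p = 3.2e-05). In A375 it fell from 400.7, 502.1 and 608.8 to 191.1, 171.3 and 226.4 (-1.35, SE 0.18, adjusted p = 5.41e-05). In both lines the groups were well apart. WM793 had 204.7, 218.6 and 266.2 against 255.7, 403.3 and 302.6, with overlap (0.46, 95% interval 0.01 to 0.91, adjusted p = 0.0986). It was called after scaling the libraries to the same total (0.019), with array weights (0.0329) and without BRAFi + MEKi replicate 1 (0.046).

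CCND1, the D cyclin most tied to ERK, fell in all 3 lines. In A375 it dropped from 8705, 6164 and 12342 to 1138, 1365 and 1569, a difference of -2.69 (SE 0.27, adjusted p = 3.94e-06). In WM793 it went from 24227, 22626 and 31118 to 8664, 12100 and 12284 (-1.24, SE 0.18, adjusted p = 0.00013). In 1205Lu it went from 13133, 7011 and 7427 to 2642, 4406 and 4779 (-1.21, SE 0.28, adjusted p = 0.00463). None of the lines had overlapping groups, though the inhibitor libraries of WM793 lay within the range of the DMSO libraries of 1205Lu.

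CCND3, the D cyclin best known from lymphoid cells, fell in 1205Lu alone among the calls. There it went from 1520, 1443 and 1205 to 594.6, 602.0 and 612.7, with no overlap (-1.20, SE 0.13, adjusted p = 2.45e-05). In WM793 it had 901.9, 961.0 and 914.2 against 715.3, 1161 and 1048 (0.05, 95% interval -0.31 to 0.40), and in A375 758.6, 769.0 and 867.6 against 811.0, 700.3 and 708.5 (-0.11, 95% interval -0.40 to 0.17). The groups overlapped in both of these lines, and neither interval reaches the fall seen in 1205Lu. CCND2 in 1205Lu had 2.62, 1.89 and 2.03 in DMSO and 2.07, 0 and 0 with the inhibitors (-1.12, SE 0.70, adjusted p = 0.249).

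CDK6, the kinase partner, had its largest estimated fall in WM793, from 13952, 12449 and 10486 to 4491, 3942 and 4118 (-1.55, SE 0.15, adjusted p = 3.07e-06). Its response in WM793 was not called different from that in 1205Lu or A375 (adjusted p = 0.301 and 0.118). In 1205Lu it went from 6240, 4646 and 4799 to 1666, 3220 and 3798 (-0.92, SE 0.26, adjusted p = 0.0146), and in A375 from 5757, 5747 and 6887 to 3114, 3021 and 5087 (-0.75, SE 0.26, adjusted p = 0.0354). No line had overlapping groups, but the smaller changes were less firm. The 1205Lu call was lost without DMSO replicate 1 or BRAFi + MEKi replicate 1 (adjusted p = 0.0595 and 0.0508). In A375 the adjusted p was 0.0826 after scaling the libraries to the same total, and leaving out 1 library ended the call in 5 of 12 cases (0.0623 to 0.134).

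With DOX in both arms, CCND1 again fell in all lines. The groups compared share no library with those without DOX, but all 12 libraries of a line share 1 estimate of the spread. BRAFi + MEKi + DOX against DMSO + DOX gave 7 calls of 9 in 1205Lu (28.2% of all genes), 4 of 9 in WM793 (31.7%) and 4 of 8 in A375 (31.0%). The CCND1 values gave differences of -1.99, -1.03 and -2.56 for 1205Lu, WM793 and A375 (adjusted p = 0.000161, 0.000731 and 1.3e-05). CDK6 fell by 1.19 in 1205Lu and 1.24 in WM793 (adjusted p = 0.00388 and 3.01e-05) and had a difference of -0.36 in A375 (adjusted p = 0.334), where its values were 8939, 5514 and 6826 against 4249, 4391 and 8562. Without BRAFi + MEKi + DOX replicate 3 the difference in A375 was -0.69 and called (adjusted p = 0.0354), as in no other alternative. CDKN2D fell by 1.17 in 1205Lu and 1.18 in A375 (adjusted p = 0.000461 and 0.000276), and CDKN1B rose by 0.89 and 0.67 there (adjusted p = 0.00925 and 0.00249). CCND3 fell in 1205Lu (-0.79, adjusted p = 0.000695) and was not called in WM793 (0.07, adjusted p = 0.792) or A375 (-0.25, adjusted p = 0.181). CDKN2B fell in WM793 (-2.74, adjusted p = 0.00146).

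In the DOX arms, CDKN1C rose in 1205Lu from 51.0, 41.4 and 46.1 to 211.8, 203.0 and 166.3 (2.04, SE 0.31, adjusted p = 0.000316). In WM793 it fell from 355.3, 121.8 and 192.8 to 102.8, 107.3 and 96.9 (-0.98, SE 0.34, adjusted p = 0.0401). That last call was lost with no filter on low values (0.0501), after scaling to the same total (0.0859), from the compared libraries alone (0.061) and in 6 cases of leaving out 1 library. CDKN2C rose in 1205Lu with DOX from 636.8, 699.3 and 698.7 to 906.5, 1553 and 1526, without overlap (0.93, SE 0.29, adjusted p = 0.0287, up to 0.108 with 1 library left out). In WM793, where it rose without DOX, it had a difference of 0.33 with DOX in both arms (SE 0.17, adjusted p = 0.165), called after scaling to the same total (0.0316) and with array weights (0.0352), and in A375 it rose by 1.12 (adjusted p = 8.63e-06). CDKN1A in 1205Lu with DOX had 5570, 3636 and 3807 against 3680, 5044 and 4591, which overlapped (0.05, 95% interval -0.43 to 0.53), where it had fallen without DOX. The test of that difference is given with the DOX effects. In WM793 with DOX in both arms, CDKN1A had a difference of 0.72 (adjusted p = 0.0991). It was called there after scaling to the same total (0.0351), with array weights (0.00161) and without BRAFi + MEKi + DOX replicate 1 (0.000923). In A375 its difference was -0.56 (adjusted p = 0.264).

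The size of the response without DOX differed between lines for 5 genes, by limma on all 36 libraries with a test of the difference itself. Between 1205Lu and WM793, 3 of 8 genes were called (14.5% of all genes), between 1205Lu and A375 4 of 8 (14.7%), and between WM793 and A375 2 of 8 (22.8%). The share called between WM793 and A375 was near the background. CDKN1C responded higher in 1205Lu than in WM793 by 3.12 (SE 0.57, adjusted p = 0.000281) and than in A375 by 2.95 (adjusted p = 0.000654). CDKN2D responded lower in 1205Lu than in WM793 by 2.07 (difference -2.07, adjusted p = 2.06e-06), and higher in WM793 than in A375 by 1.81 (adjusted p = 5.47e-06). The CCND3 response in 1205Lu lay below that of WM793 by a difference of -1.24 (adjusted p = 3.81e-05) and below that of A375 by -1.09 (adjusted p = 0.000245).

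CCND1 fell further in A375 than in 1205Lu (difference 1.49, adjusted p = 0.00992) and than in WM793 (1.45, adjusted p = 0.00749). CDKN2C responded lower in 1205Lu than in A375 by 1.08 (difference -1.08, adjusted p = 0.0197), a call that was lost when the fit held the compared libraries alone (adjusted p = 0.0732). For CDKN1A the difference between 1205Lu and WM793 was -1.33 (SE 0.49, adjusted p = 0.0682), and 4 of 6 alternative settings called it (adjusted p = 0.01 to 0.0915 over the 6), as did 4 of 36 fits with 1 library left out. For CDKN2C the same difference was -0.85 (SE 0.32, adjusted p = 0.0716), called in 3 of 6 settings (0.00562 to 0.205) and in 4 of 36 fits with 1 library left out. CDKN1B and CDK6 were called in no pair of lines, which does not show that they responded alike. For CDK6, array weights called the difference between 1205Lu and WM793 (0.62, adjusted p = 0.301, and 0.0496 with the weights). The fit of the compared libraries alone called that between WM793 and A375 (-0.80, adjusted p = 0.118, and 0.036 in that fit).

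Adding DOX to BRAFi + MEKi left each of these genes short of a call. By limma, 0 of 9 were called in 1205Lu, 0 of 9 in WM793 and 0 of 8 in A375, where 0.334%, 0.204% and 1.52% of all genes were called. The unadjusted p was under 0.05 for 4, 3 and 1 of them, and for 2153 of 22144, 1754 of 22074 and 2585 of 24370 genes in all, so that 1 of 8 in A375 was near the background. Alternative settings called between 0 and 4 of these genes in all lines together.

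CDKN1A in 1205Lu came nearest. With BRAFi + MEKi alone it had 2337, 2341 and 1984, and with DOX added 3680, 5044 and 4591, so that all libraries with DOX lay above all without. The difference was 0.99 (SE 0.22, unadjusted p = 0.000562, adjusted p = 0.0842). Deviations of same-numbered libraries from their group means had r = 0.274, 0.109 and 0.113 in this comparison, each over 0.1. The other comparisons of this line fell short of that (lowest r of 0.083, 0.048 and 0.059). With the replicate number as a block, fitted over all 12 libraries of the line, the adjusted p was 0.0289. Array weights gave 0.00342, leaving out BRAFi + MEKi + DOX replicate 1 gave 0.026, leaving out DMSO replicate 1 gave 0.0471, and the other settings and left-out libraries gave 0.0778 to 0.312. In DMSO the same gene had 8271, 5424 and 4445 without DOX and 5570, 3636 and 3807 with it (-0.46, SE 0.22, adjusted p = 0.731). The DOX effects under the inhibitors and under DMSO differed by 1.45 (SE 0.31, unadjusted p = 0.000425, adjusted p = 0.533). NR2F1 itself had a larger difference with DOX under the inhibitors (3.33) than under DMSO (1.93) in this line (difference 1.40, adjusted p = 0.838), and its part in the result was not tested.

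In WM793, CDKN1A had 1611, 2587 and 2222 with BRAFi + MEKi and 1759, 5663 and 3926 with DOX added, groups that overlapped through replicate 1 (0.69, SE 0.31, adjusted p = 0.611). Without BRAFi + MEKi + DOX replicate 1 the adjusted p was 0.0456. In A375 it had 6979, 7094 and 3677 against 6546, 8201 and 3192, with full overlap (-0.03, 95% interval -0.80 to 0.74).

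CCND1 had differences of opposite sign with DOX under the inhibitors in 1205Lu and WM793, without a call. In 1205Lu it had 2642, 4406 and 4779 against 2540, 2195 and 2096 with DOX (-0.75, unadjusted p = 0.0171, adjusted p = 0.357). In WM793 it had 8664, 12100 and 12284 against 15066, 18772 and 18979 with DOX (0.69, unadjusted p = 0.00236, adjusted p = 0.236). Neither pair overlapped, and A375 had 1138, 1365 and 1569 against 974.5, 1442 and 1520 (-0.06, 95% interval -0.65 to 0.52). The DOX effects of 1205Lu and WM793 differed by -1.44 (SE 0.40, unadjusted p = 0.00106, adjusted p = 0.155). Array weights called all 3 of these differences of CCND1 (adjusted p = 0.0162 in 1205Lu, 0.0324 in WM793 and 0.00531 between them), and no other alternative setting or left-out library did.

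Among the rest, CDKN2C in 1205Lu had 547.4, 1108 and 881.7 against 906.5, 1553 and 1526 with DOX (0.67, unadjusted p = 0.0378, adjusted p = 0.479), groups that overlapped. CDKN1C in 1205Lu had 220.6, 389.7 and 350.3 against 211.8, 203.0 and 166.3 (-0.69, unadjusted p = 0.0437, adjusted p = 0.498), with no overlap. CDK6 had differences of 0.40 in WM793 and 0.58 in A375 (unadjusted p = 0.0172 and 0.0451, adjusted p = 0.46 and 0.456), with groups that overlapped in both lines. CCND3 did not overlap in 1205Lu, with 594.6, 602.0 and 612.7 against 650.1, 729.9 and 695.4 (0.20, adjusted p = 0.712), or in A375, with 811.0, 700.3 and 708.5 against 638.1, 672.2 and 543.2 (-0.26, adjusted p = 0.521). The differences of CDKN1B were small, with intervals of -0.56 to 0.40 in 1205Lu, -0.40 to 0.32 in WM793 and -0.27 to 0.34 in A375.

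**Figure D4:**
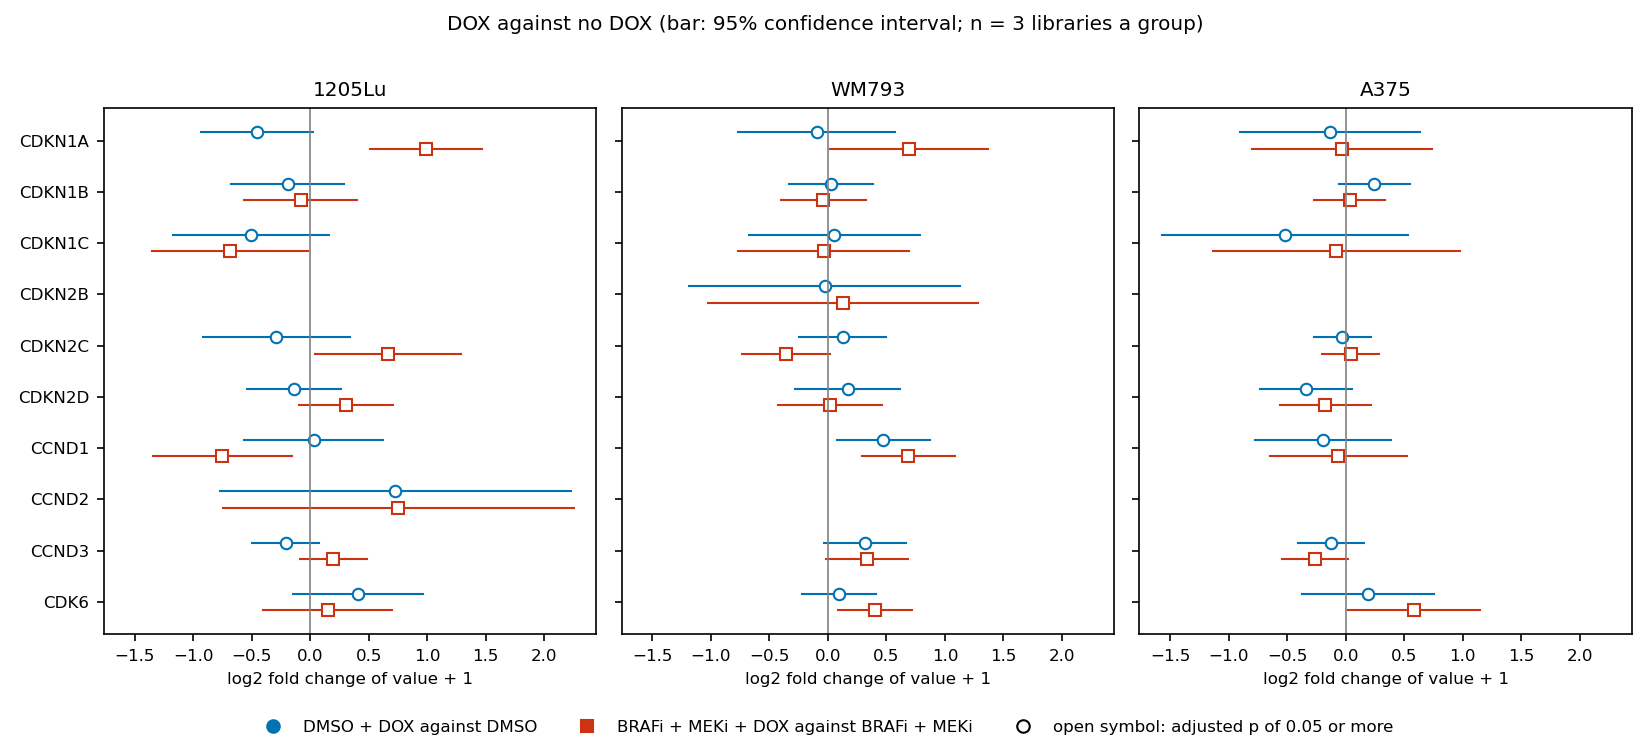
Difference with DOX (log2(value + 1), horizontal axis) under BRAFi + MEKi and under DMSO for each gene and line, with 95% intervals from limma, all symbols being open since no adjusted p was under 0.05. CDKN1A in 1205Lu lies at 0.99 under the inhibitors and -0.46 under DMSO, and CCND1 under the inhibitors lies at -0.75 in 1205Lu and 0.69 in WM793.

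Under DMSO, DOX gave 0 calls of 9 in 1205Lu, 0 of 9 in WM793 and 0 of 8 in A375 (0.00903%, 0.512% and 0.0492% of all genes). The unadjusted p was under 0.05 for CCND1 in WM793 alone, with 24227, 22626 and 31118 against 41313, 27822 and 39700 with DOX (0.47, unadjusted p = 0.0225, adjusted p = 0.402). That 1 of 9 was near the background of WM793, where 2189 of 22074 genes had an unadjusted p under 0.05. No alternative setting called a gene here. For the difference between the DOX effects under the inhibitors and under DMSO, limma called none of these genes (0.00%, 0.00% and 0.460% of all genes). The unadjusted p was under 0.05 for CDKN1A and CDKN2C in 1205Lu (2 of 9, against 1267 of 22144 genes in all). Array weights called 1 gene. For the difference between lines in the DOX effect under the inhibitors, 0 of 8 were called in each pair (0.138%, 0.179% and 0.881% of all genes), with 2, 2 and 1 at an unadjusted p under 0.05 (1905, 2161 and 2239 of all 26779 genes, to which 1 of 8 is near) and between 0 and 2 calls over the alternatives. The difference of CDKN2C between 1205Lu and WM793 was 1.03 (adjusted p = 0.235), and 0.0205 with the replicate block, which the numbers support in both comparisons behind it.

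The share of CCND3 among the D cyclin transcripts was higher with the inhibitors, without overlap, in A375 and WM793 when DOX was absent and in all 3 lines when both arms had DOX. Per kb of exon union, CCND3 made up 7.19% ± 1.97 (SD, n = 3) of the D cyclin total in A375 in DMSO and 31.3% ± 5.12 with BRAFi + MEKi. In WM793 its share went from 2.92% ± 0.51 to 6.77% ± 0.51. In 1205Lu, where CCND3 fell together with CCND1, it was 11.7% ± 2.91 and 11.8% ± 3.36. With DOX in both arms it went from 10.1% ± 2.33 to 20.2% ± 2.36 in 1205Lu, from 2.63% ± 0.58 to 5.39% ± 0.27 in WM793 and from 7.69% ± 2.74 to 28.6% ± 6.19 in A375. CCND3 and CCND1 again both fell in 1205Lu with DOX in both arms, with differences of -0.79 and -1.99. The ratio of CCND1 to CCND3 per kb was 13.9, 9.70 and 17.2 in the DMSO libraries of A375 and 1.70, 2.36 and 2.68 with the inhibitors. The length chosen moves these values by over 1.5 times. Per kb of the longest transcript, CCND3 went from 14.2% ± 3.58 to 49.3% ± 5.86 in A375 and from 6.04% ± 1.03 to 13.5% ± 0.93 in WM793, and had 22.01% ± 4.86 and 22.15% ± 5.501 in 1205Lu, so the direction in A375 and WM793 was the same. These shares follow from the values above and were not tested again.

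**Figure D5:**
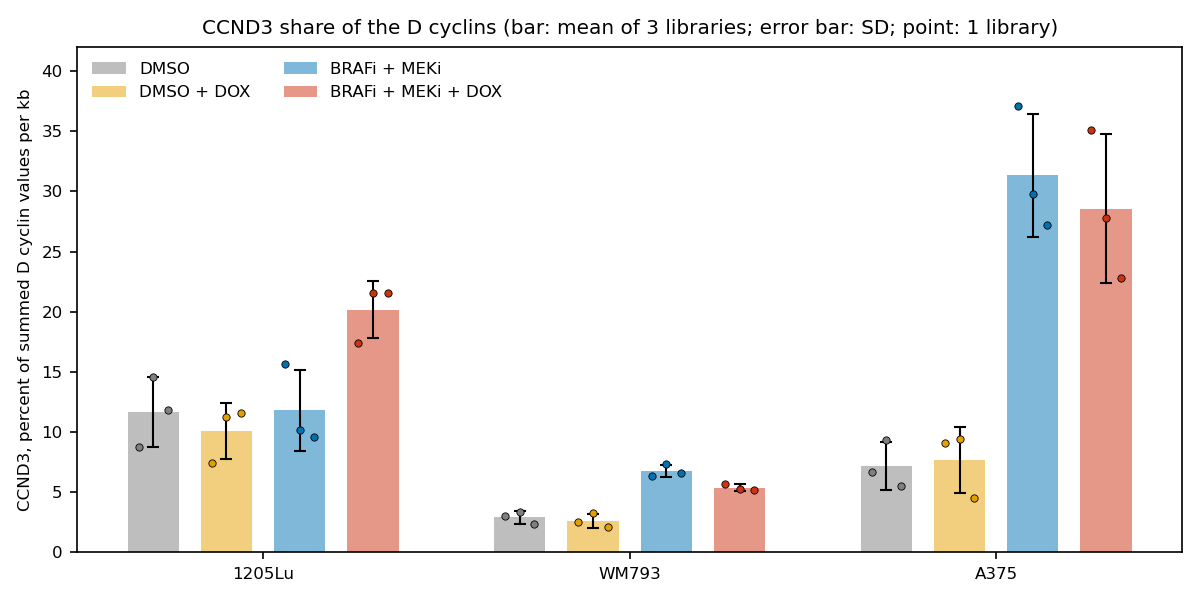
Share of CCND3 in the summed D cyclin values per kb of exon union (percent, vertical axis) in each library, by line and treatment, with means as bars and the SD of 3 libraries as error bars. A375 goes from a mean of 7.19% in DMSO to 31.3% with BRAFi + MEKi.

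The surrounding pathway genes were described by their counts and medians beside those of all genes tested. For BRAFi + MEKi without DOX, 16.5%, 20.4% and 20.5% of all genes were called higher in 1205Lu, WM793 and A375 and 14.4%, 16.9% and 19.0% lower, with medians of 0.11, 0.15 and 0.06. Of 24 E2F and proliferation targets, 23, 10 and 24 fell under BRAFi + MEKi in 1205Lu, WM793 and A375, and none rose. Their median differences were -2.48, -0.28 and -3.61. RRM2, a subunit of ribonucleotide reductase, fell by 3.31 in 1205Lu and 5.33 in A375 (adjusted p = 0.000425 and 5.53e-08), and in WM793 the mitotic cyclin CCNB1 fell by 1.05 (adjusted p = 0.000218). Of 15 genes of ERK output, 13, 14 and 14 fell and none rose, with medians of -2.93, -1.82 and -2.41. SPRY4, an inhibitor of this pathway, had differences of -5.75 in 1205Lu and -5.90 in WM793, and the AP-1 gene FOSL1 had one of -5.36 in A375.

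Of 28 genes of the CDK, RB and E2F core outside the 10, 16 of 27 tested fell and none rose in 1205Lu. In WM793, 9 fell and 4 rose, and in A375 18 fell and 2 rose. The medians were -0.65, -0.22 and -0.68. E2F1 fell by 3.20 in 1205Lu (adjusted p = 0.000525), CDC25A, a phosphatase that activates CDK2, fell by 1.25 in WM793, and MYBL2 fell by 3.89 in A375. RB1 rose by 0.70 in WM793 and by 0.64 in A375 (adjusted p = 0.0023 and 0.00134).

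Of 15 genes downstream of FOXO factors or tied to quiescence, 8 rose and 1 fell in 1205Lu, 7 rose and 1 fell in WM793, and 8 rose and 3 fell in A375, with medians of 1.23, 0.73 and 0.58. TXNIP, an inhibitor of thioredoxin, rose by 5.56 in 1205Lu and 5.47 in WM793, and PIK3IP1, an inhibitor of PI3 kinase, rose by 3.64, 3.99 and 2.13 in 1205Lu, WM793 and A375. Among 24 p53 targets without CDKN1A, 2 rose and 9 fell in 1205Lu, 10 rose and 5 fell in WM793, and 2 rose and 9 of 23 tested fell in A375. Their medians were -0.28, 0.50 and -0.32. The shares that rose in 1205Lu and A375 were below those of all genes, and the share that fell in WM793 was near it. GDF15, a stress-induced cytokine, fell in each line, with differences of -4.42, -2.77 and -3.75, whereas FAS, a death receptor, rose by 2.08 in WM793.

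Of 17 genes for the turnover and assembly of D cyclins and CDK inhibitors, 2 rose and 5 fell in 1205Lu, 1 rose and 10 fell in WM793, and 3 rose and 8 fell in A375, with medians of -0.25, -0.43 and -0.11. The shares that rose in 1205Lu, WM793 and A375 were below those of all genes. CKS1B, a cofactor with which SKP2 marks p27 for breakdown, fell by 2.38 in 1205Lu and 2.18 in A375 (adjusted p = 1.05e-05 and 1.21e-07). CRYAB, a chaperone also described in cyclin D1 breakdown, rose by 3.99 and 5.42 in these lines. GSK3B, a kinase that marks cyclin D1 for export and breakdown, fell by 1.32 in WM793. Of 15 TGF-beta and SMAD genes, 3 rose and 2 fell in 1205Lu, 4 rose and 2 fell in WM793, and 5 rose and 3 fell in A375, with medians of 0.30, 0.19 and -0.05. These shares were near those of all genes, apart from a larger share that rose in A375. In WM793, the line with CDKN2B, the receptor TGFBR2 rose by 2.32 (adjusted p = 5.68e-08).

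For DOX under BRAFi + MEKi, where 0.334%, 0.204% and 1.52% of all genes were called in 1205Lu, WM793 and A375, some pathway genes were called in each line and none of the 10 genes was. Of the 24 E2F and proliferation targets, 21 rose in A375, 4 in 1205Lu and 0 in WM793, with median differences of 1.65, 1.27 and -0.02. RRM2 rose by 2.47 (adjusted p = 0.00084) and BUB1 by 2.33 (adjusted p = 0.000224) in A375, and MKI67, the proliferation marker, rose by 1.55 in 1205Lu (adjusted p = 0.0158). Of the core genes, 8 rose in A375, among them E2F1 by 2.11 (adjusted p = 0.000224). Of the 17 turnover and assembly genes, 3 rose in A375, among them SKP2, which marks p27 for breakdown, by 2.33 (adjusted p = 7.54e-05). In WM793, SESN3, a FOXO target, fell by 0.87 (adjusted p = 0.0477) and the receptor TGFBR2 fell by 0.94 (adjusted p = 0.0151), each the 1 call among the 15 genes of its list. CDKN1B in A375 had 2328, 2299 and 3356 without DOX and 2377, 2924 and 2775 with it.

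How these genes varied together was described by Pearson's r over the 12 group means, each centred on its line, with no p, since the groups share lines and treatments. CCND1 ran against CDKN2C (r = -0.95) and CDKN1B (r = -0.92), and CDKN1B ran with CDKN2C (r = 0.83) and against CDKN2D (r = -0.84). CDKN2D ran with CCND3 (r = 0.81) and CDKN1A (r = 0.78). Among the 14671 genes with a mean of at least 30, the pattern most like CDK6 was that of NCR3LG1 (r = 0.99), followed by LYPLA1 and WDR43 (both r = 0.98). For CDKN2D it was IMPDH1 (r = 0.985), for CDKN2C PPFIBP2 (r = 0.957), for CCND3 RUSC1 (r = 0.975) and for CDKN1A VSIG10L (r = 0.907). CDKN2B gave r = 0.998 with TAFA5, which rests on the 4 groups of WM793, as it was listed at 0 in the other lines.

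Across the 12 groups, CDKN1A was highest in A375 in DMSO, CDKN1B and CDKN2C in A375 with BRAFi + MEKi + DOX, CDKN1C in 1205Lu with BRAFi + MEKi, and CDKN2D and CCND3 in 1205Lu in DMSO. CDKN2B, CCND1 and CDK6 were highest in WM793 in DMSO + DOX. When the groups were ordered by mean, the libraries of neighbouring groups overlapped in all 11 neighbouring pairs for CDKN1A, in 10 for CDKN1C, CDKN2C and CCND3, in 9 for CDKN1B, CDKN2D and CDK6, and in 6 for CCND1. Most single steps in these orders were therefore no larger than the spread between libraries.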

How the data were processed

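RNA-Seq values came in 1 table for each of 36 libraries. Per the labels and the methods, the authors aligned reads to GRCh38 with STAR, estimated gene counts with RSEM and normalized them with DESeq2, tools also named in the submitters' processing notes. The deposited values are therefore a normalized signal per gene and not counts, so limma was used in place of a count test. The median ratio to the geometric mean over all libraries (13857 genes above 0 in each) was 1.012 in every library, so the lines share 1 scale. Depth and strand are not given in the sources used here. Such scaling fixes each library by its typical gene, so a change in total RNA would not be seen.

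Within each line, genes were kept where some group's mean reached 1, log2(value + 1) was taken, and all 12 libraries were fitted by group with limma 3.58.1 (with a trend in the spread) in R 4.3.3. Differences between lines came from 1 fit of all 36 libraries. P-values were adjusted over all genes tested (Benjamini-Hochberg), with calls at an adjusted p under 0.05. Intervals are 95% intervals. The fit was tested on simulated data. Symbols, positions and exon lengths came from GENCODE 44, and promoters from RefSeq (GRCh38.p14). Python 3.11.15, pandas 2.3.3, numpy 2.4.6 and matplotlib 3.10.9 were also used.

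The genes and lists were chosen with earlier results of these data known. Besides the 10 genes, the text names NR2F1 and ERK targets as checks, at most the 2 called genes with the largest change each way per list and comparison, and at most 3 genes of like pattern per gene. Same-numbered libraries deviated together in the comparison of BRAFi + MEKi with and without DOX in 1205Lu (r = 0.274, 0.109 and 0.113) and WM793 (r = 0.251, 0.177 and 0.105), every r being over 0.1, and there the replicate block is given beside a result where it changed the call. The block was fitted over all libraries of a line, or of all 3 lines, and so also over groups whose numbers did not meet that rule. The alternatives were a pseudocount of 0.1, no filter, libraries scaled to the same total, the replicate number as a block, array weights, a fit of the compared libraries alone, and each library left out.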

Additional observations from a re-analysis of the deposited data

Results flagged for a closer look

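The response to BRAFi + MEKi without DOX differed between lines in 9 tests of the difference, all by limma on the log2(value + 1) scale with p-values adjusted over 26779 genes. They were 3 of 8 genes for 1205Lu minus WM793, 4 of 8 for 1205Lu minus A375 and 2 of 8 for WM793 minus A375. Of all genes, 14.5%, 14.7% and 22.8% were called in these pairs, so the last share was near the background. CDKN1C stood out in 1205Lu, with a response higher by 3.118 than in WM793 and by 2.947 than in A375, since it rose in 1205Lu and its means were lower with the inhibitors in the other lines. CDKN2D stood out in WM793, where its mean was higher with the inhibitors while it fell in the other lines: the difference of 1205Lu minus WM793 was -2.074 and that of WM793 minus A375 was 1.806. CCND3 fell in 1205Lu and was not called in the other lines, with differences in response of -1.241 against WM793 and -1.086 against A375.

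CCND1 fell most in A375, by a difference of 1.488 for 1205Lu minus A375 and 1.452 for WM793 minus A375. CDKN2C rose in A375 and was not called in 1205Lu, a difference of -1.075. That last difference was lost in the fit of the compared libraries alone (adjusted p = 0.0732), and its adjusted p was also 0.076 or 0.0756 with 1 library left out. The lines also differ in their growth medium, which cannot be told apart from the line.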

How the results depend on the processing

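Of 5506 values recomputed over 206 tests, 59 of which were called, 1704 of the 1734 values of called tests kept their call, 30 lost it and none changed sign, while 58 values of uncalled tests became calls and 141 changed sign. For DOX under BRAFi + MEKi the 0 calls became 1 with the replicate block (CDKN1A in 1205Lu, and no other call changed), 4 with array weights (CDKN1A and CCND1 in 1205Lu, CCND1 and CDK6 in WM793) and 0 to 1 with a library left out. For the difference of the DOX effects under BRAFi + MEKi and DMSO they became 1 with array weights (CDKN1A in 1205Lu, adjusted p = 0.0356). For the difference between lines in the DOX effect they became 1 with the replicate block (CDKN2C between 1205Lu and WM793, adjusted p = 0.0205), 2 with array weights (CCND1 and CDKN2C in that pair) and 0 to 1 with a library left out. The cause was not tested. With the replicate block, which the numbers support only for DOX under BRAFi + MEKi in 1205Lu and WM793, BRAFi + MEKi against DMSO gave 18 calls in place of 16 over the 3 lines, adding CDKN1A in A375 (adjusted p = 0.000733, and 0.00322 with DOX in both arms) and CDKN1B in WM793 (0.0499), and 15 to 18 with a library left out. The other counts stayed within 1.5 times: 15 calls with DOX in both arms became 14 to 20, 19 between lines in DMSO became 18 to 20, and 9 differences in response became 8 to 12. Scaling the libraries to the same total moved the median of all genes by 0.06, 0.18 and 0.14 in 1205Lu, WM793 and A375 for that comparison, and the share of higher calls from 53.4% to 58.2%, 54.8% to 69.1% and 52.0% to 62.4%. With DOX in both arms that share moved from 53.3% to 62.8%, 52.6% to 67.0% and 52.2% to 64.1%, for DOX under DMSO in WM793 from 37.2% to 48.0%, and for the difference in response of 1205Lu minus WM793 from 45.1% to 31.5%. No call of the 10 genes turned its direction under that scaling. Groups of 3 libraries, unknown depth and values near 0 for CCND2 limit what could be detected.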
